A study of Mus musculus with 10 samples.

Results

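H3K27me3 is the trimethylation of lysine 27 of histone H3 that Polycomb repressive complex PRC2 deposits. The regions described here lay far from transcription starts and were listed as enriched for the mark in mouse duodenal organoids in stem cell medium, with no listed region over them in differentiation medium. There were 1012 of them, of 5009 regions in the broad list of the stem cell medium. They were chosen by 4 steps. Of the 5009 regions, 4523 were shorter than 10000 bp, 2984 of these overlapped no broad region of the differentiation medium by 1 bp, 1375 overlapped no narrow region of it either, and 1012 began and ended more than 5 kb from every transcription start site (TSS) in the deposited transcription table. Inside a transcript, on either strand, lay 321 of them (31.7%, exact 95% interval 28.9 to 34.7), and 691 lay between genes. Coordinates are in mouse build mm9, as deposited.

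The organoids were grown in Matrigel from intestinal stem cells of mouse duodenum. WENRC, the stem cell medium, held EGF, Noggin, R-spondin, Wnt3A and CHIR-99021, which activates Wnt signalling, and ENRI, the enterocyte differentiation medium, held EGF, Noggin and R-spondin, without Wnt3A and CHIR-99021 and with IWP-2, an inhibitor of Wnt secretion. The labels give no strain, age or genetic change for either medium. H3K27me3 ChIP-seq came from a single library per medium (31.4M tags for WENRC, 29.8M for ENRI), each compared by the authors with input DNA of its medium. Global run-on sequencing (GRO-seq), which labels nascent RNA on engaged polymerases in nuclei, came from 2 libraries per medium. They are numbered 1 and 2 here by the batch in the file header. The sample titles name 2 mice, but a column cannot be tied to a mouse. Reads over all transcripts were 25839484 and 9245915 in WENRC and 29128101 and 15787828 in ENRI (batches 1 and 2).

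PRC2 places H3K27me3 through its catalytic subunits EZH2 or EZH1, together with EED and SUZ12, and the demethylases KDM6A and KDM6B remove it. The mark is best known at promoters of silent developmental genes, where it often spreads into broad domains and where PRC1, a second Polycomb complex, can bind it. Away from promoters it also covers bodies of silent genes and stretches between genes at a lower level. In the intestine PRC2 is known for acting in crypt progenitors.

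The choice of the regions used the peak calls of both media, so their tags and folds are given as a description, with no test. With 1 library per medium, a region listed in WENRC and not in ENRI cannot be told apart from one called in 1 library by counting error.

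Most of the 1012 regions were small and close to the calling limit. Their median length was 1000 bp, the width of the authors' calling window, and 748 (73.9%) were exactly 1 window. The longest measured 5328 bp. A region held a median of 44 ChIP tags (quartiles 40 to 52, lowest 29, highest 234), or 14.0 tags per 10M, against a median of 8 input tags (2 to 50). The authors' fold over input had a median of 4.73 (quartiles 4.36 to 5.42), just above the 4-fold that their calling required, and reached 19.6. The score deposited with each region had a median of 36, where the tag threshold of the calling was 34, and 510 regions (50.4%) scored below 37. The score is no count of the tags in a region, as a region with 29 tags scored 35. In all they covered 1190 kb and held 3.66% of the tags in the WENRC broad list.

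Distal regions in the broad lists of both media were longer and held more tags. The same peak calls split these sets, and a longer region overlaps an ENRI region more easily. By the same distance and length limits 524 WENRC regions overlapped a broad ENRI region. These had a median length of 1589 bp, 24.2 tags per 10M and 47.6 tags per kb, against 42.0 tags per kb in the 1012. Only 33.6% of them were a single window, and 27.7% scored below 37. Their median input was 14 tags against 8 in the 1012, and the fold over input was alike, with a median of 4.81 against 4.73. The mirror set, 2643 distal ENRI regions with no WENRC region over them, had the same form as the 1012, with a median length of 1000 bp, 13.7 tags per 10M, a fold of 4.78 and 72.3% single windows.

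**Figure D1:**
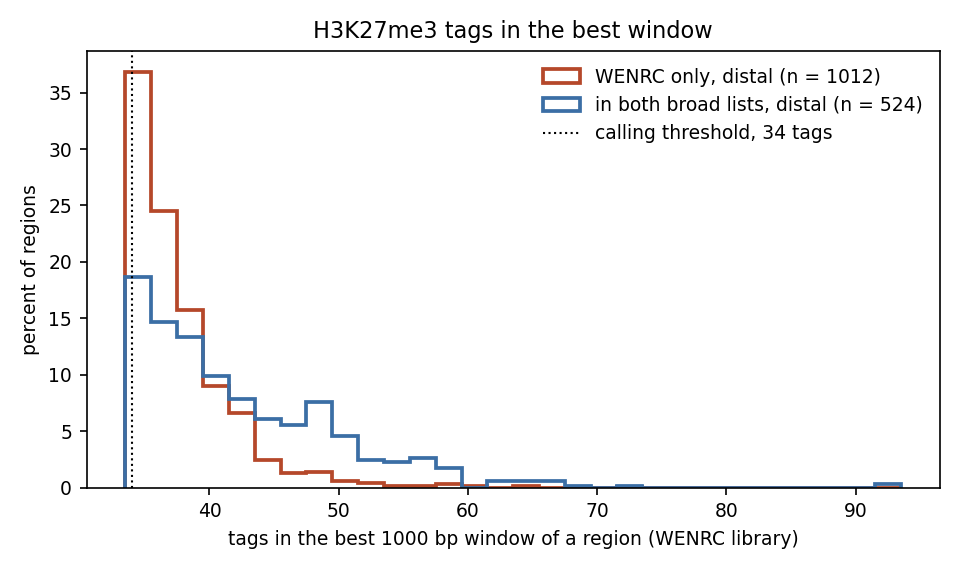
Histogram of the deposited score of each distal region in the WENRC library, as a percent of regions in bins of 2. It shows the 1012 regions listed in WENRC only and the 524 in both broad lists. The axis calls the score the tags in the best 1000 bp window, but a score can exceed the tags of its region. The dotted line marks the calling threshold of 34 tags. The WENRC-only regions pile up there, with a median score of 36, while those in both lists have a median of 40.

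The narrow lists, called by the authors with windows of 500 bp, gave further descriptions. Of the 1012 regions, 921 (91.0%) overlapped a narrow WENRC region. Another 980 short distal WENRC regions missed the broad ENRI list but overlapped the narrow one, and were left out by the rule. The narrow ENRI list held 55544 regions and the narrow WENRC list 33499.

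ENRI regions usually lay close by. The nearest broad or narrow ENRI region was a median of 1.97 kb away (quartiles 0.665 to 5.96 kb), 348 regions had one within 1 kb and 983 (97.1%) within 50 kb. Neighbouring narrow ENRI regions were a median of 5.24 kb apart. That is a whole gap within 1 list, while the 1.97 kb is the distance to the nearer side in either list. The 2 values therefore do not tell whether the regions lay unusually close. Broad ENRI regions were farther, at a median of 33.6 kb. The closest case lay 1 bp from an ENRI region, on chromosome 3 (start 33803915, end 33804915), with 13.4 tags per 10M and a fold of 4.58. The 1012 regions themselves were scattered, with a median of 343 kb to the next of their kind, and 77 (7.61%) lay within 50 kb of a WENRC region of 10000 bp or longer. In the mirror set 4.39% lay that close to a long region of the ENRI list.

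**Figure D2:**
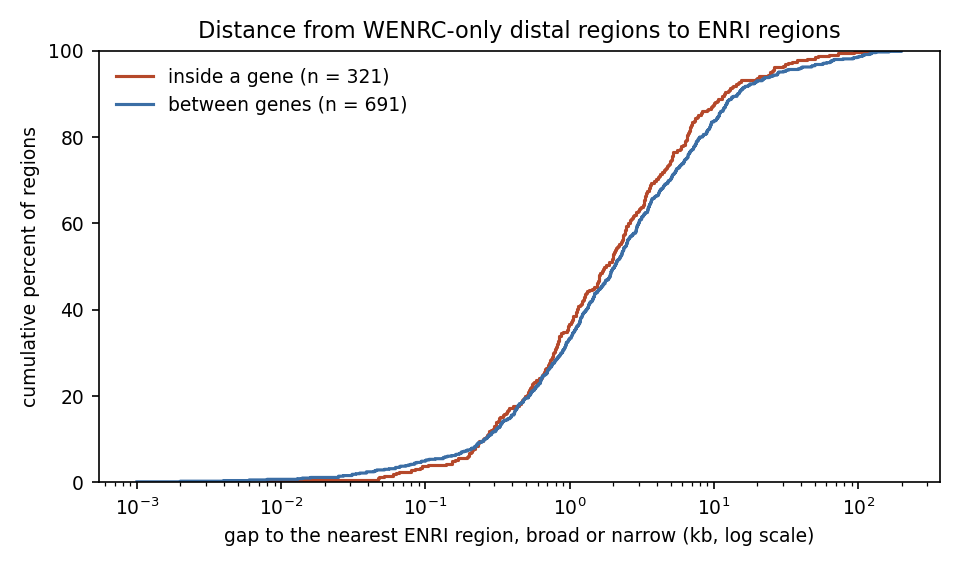
Cumulative percent of WENRC-only distal regions by the gap in kb (log scale) to the nearest ENRI region of either list, for 321 regions inside genes and 691 between genes. Both curves climb together, with medians of 1.78 kb inside genes and 2.05 kb between genes.

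Regions inside and between genes were alike in these measures. The median was 43 tags inside and 44 between, the median fold 4.73 in both, and single windows made up 72.6% and 74.5%. Distance to the nearest TSS had a median of 32410 bp inside genes and 43424 bp between genes. Over all 1012 it was 39541 bp, with the farthest at 621815 bp. Of all distal sequence between the first and last TSS of each chromosome, 2355 Mb, 36.6% lay inside a transcript, above the interval of the 31.7% of the regions. The share inside was 32.1% in the 524 regions of both lists and 34.7% in the mirror set. At the 5 kb limit, the nearest included regions were near Krt24, a keratin gene, at 5067 bp with 15.6 tags per 10M, and near the potassium channel gene Kcnk16 at 5088 bp with 11.8. Those just left out were near Zfp961 at 4998 bp with 15.6 and near Ly9, a lymphocyte receptor gene, at 4952 bp with 20.7.

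None of the 1012 regions was on the X chromosome, which holds 6.52% of the distal sequence. A count of 0 allows a share of up to 0.296%, and this covers counting error only. The X chromosome was sparse in other distal sets too, with 6 of the 524 in both broad lists and 4 of the 2643 mirror regions. It held 45 of the 4523 short WENRC regions and 12 of the 363 WENRC-only regions within 5 kb of a TSS. Among the autosomes, chromosome 19 had 8.03 regions per 10 Mb of distal sequence and chromosome 9 had 7.46, while chromosome 12 had 2.71. Chromosome 2 held the most, 93.

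**Figure D3:**
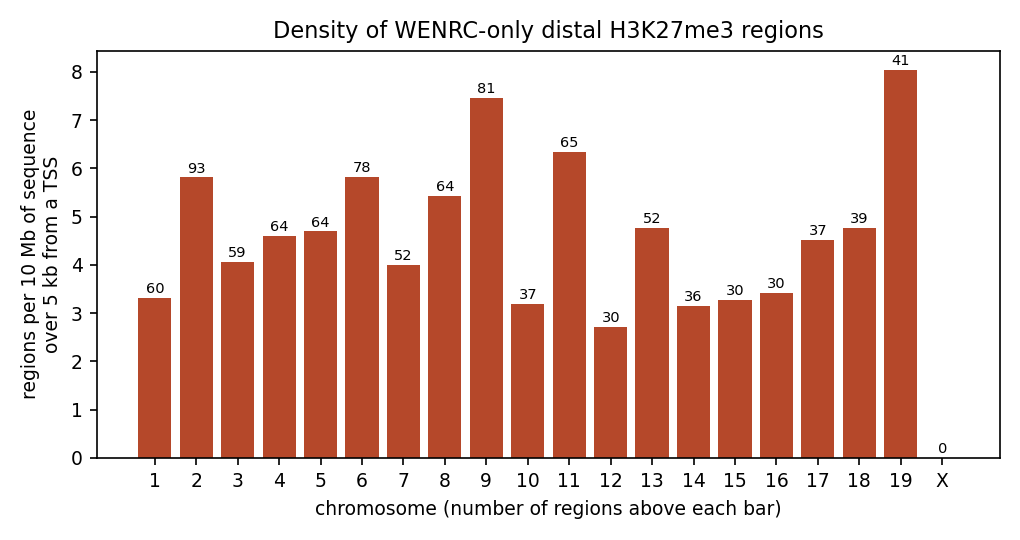
Bars show the number of WENRC-only distal regions per 10 Mb of sequence over 5 kb from a TSS on each chromosome, with the number of regions above each bar. Chromosome 19 is the densest at 8.03, chromosome 12 the least dense autosome at 2.71, and X has none.

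The regions inside genes with the most tags lay in genes of diverse function, and most of these genes had little transcription. Zbtb7c, a BTB zinc finger gene, held the one with the most tags, 234 (counting interval 205 to 266) on chromosome 18 (start 76219114, end 76223460), with 50 input tags and a fold of 4.08. Its GRO-seq level was 0.0159 and 0.0385 RPKM in WENRC and 0.0369 and 0.0386 in ENRI (batches 1 and 2). Lmx1a, a LIM homeobox transcription factor known from midbrain development, held 225 tags on chromosome 1 (start 169731093, end 169736421), 114 kb from its start, at a fold of 4.56. Celsr1, a cadherin of planar cell polarity, held 182 tags, Ppfia4, a liprin of synapses, 158, and Hydin, a protein of motile cilia, 109. The 4 RPKM values of Hydin lay between 0.00870 and 0.0388.

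The 10 regions inside genes with the most tags were long, from 1809 to 5328 bp, so tag totals do not rank them by enrichment. The region in Tmprss9 had a deposited score of 34, the lowest among the 1012, with 174 tags over 3498 bp. The median fold of the 1012 was 4.73, and the folds of these 10 regions lay between 4.06 and 6.81. The highest of these was in Camta1, a calmodulin-binding transcription activator, with 125 tags over 2293 bp and 16 input tags, 721 kb from its start.

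Between genes, the region with the most tags, 216, lay 15.6 kb from the start of Olfm2, a secreted olfactomedin gene. It is on chromosome 9 (start 20548247, end 20551518) and had a fold of 6.28. It was only 0.328 kb from a broad ENRI region. Next were regions near Mir8110 with 210 tags, Zfp663 with 202, E130309D14Rik with 198, Rragc with 194 and Gm2447 with 183. Of these genes only Rragc, a Rag GTPase of the mTORC1 pathway, was transcribed above 0.5 RPKM, with 1.54 and 1.65 in WENRC and 1.28 and 1.499 in ENRI, and its TSS was 73.1 kb away.

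The 321 regions inside genes had 275 host genes, a host being the gene with the largest overlap. Hosts were long, with a median of 110 kb against 14.1 kb over all 24016 genes and 26.9 kb over the 15979 genes with 1 kb or more of distal body. Each host was cut into 3 equal parts from its start to its end. Of 317 region centres within a host, 80 fell in the part nearest the start. The middle part held 109 and the part nearest the end 128. The choice of the regions left out those close to any TSS, which removes sequence at the start of every host. The parts were not corrected for this, so the counts do not tell whether the regions favoured a part of the gene. At least 2 regions were found in each of 39 hosts. Camta1 and A930011G23Rik held 4 each, and Jazf1, Cux2 and Cdh23 held 3 each.

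In Camta1 the 4 regions had 125, 40, 37 and 53 tags, at 721, 442, 133 and 119 kb from its start, and folds of 6.81, 5.81, 5.38 and 4.20. A930011G23Rik, an uncharacterised gene, had 98, 42, 45 and 45 tags, at 188, 86.3, 53.4 and 27.7 kb from its start. The transcription factor gene Cux2 had 81, 37 and 49 tags, and Cdh23, a cadherin of the hair cell tip link, had 36, 37 and 44. In Camta1, as in A930011G23Rik, a single region carried well over the tags of each of the others. It was also the longest, at 2293 bp in Camta1 and 1850 bp in A930011G23Rik, against 1000 to 1336 bp for the others. Its score was 64 in Camta1, the highest of that gene. In A930011G23Rik its score was 34, the lowest of that gene, though it held the most tags there, 98. Transcription in these hosts was low in every library, with 0.0511 to 0.0963 RPKM for Camta1, 0.0297 to 0.0939 for Cux2 and 0.0290 to 0.0503 for Cdh23. Jazf1, a zinc finger gene, was the most transcribed of the 5 hosts, at 0.116 and 0.123 RPKM in WENRC and 0.142 and 0.150 in ENRI.

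Host genes as a group were scarcely transcribed. GRO-seq was not used in the choice of the regions other than through the positions of the TSS. The median over 275 hosts was 0.0232 RPKM in WENRC and 0.0267 in ENRI, against 0.397 and 0.296 over all genes. In WENRC, 217 hosts (78.9%) were under 0.1 RPKM, as were 39.2% of all genes. In the silent range the batches differed, with host medians of 0.0133 and 0.0334 RPKM in WENRC and 0.0144 and 0.0351 in ENRI (batches 1 and 2). The lower quartile of all genes showed the same step, at 0.00476 and 0.0249 RPKM in WENRC and 0.00539 and 0.0228 in ENRI. The cause of this step was not tested.

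Long genes offer more sequence, so the regions were also set against the distal gene-body sequence, summed over genes. Bases shared by overlapping genes count for each gene in this sum, while a region counts for 1 host. Hosts under 0.1 RPKM in WENRC held 257 of the 321 regions (80.1%, interval 75.3 to 84.3) and 48.1% of that sequence. Genes of 1 RPKM or more held 4 regions (1.25%, interval 0.341 to 3.16) and 18.6% of the sequence, and those from 0.5 to 1 RPKM held 10 regions (3.12%) and 14.4%. In each library taken alone, genes of 0.5 RPKM or more held 13, 14, 14 and 11 regions, between 3.43% and 4.36%, and 27.5% to 33.2% of the sequence. The other distal sets were close, with 79.1% of the mirror set and 74.4% of the regions in both lists in genes under 0.1 RPKM. The intervals treat regions as independent draws, and 39 hosts held more than 1.

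**Figure D4:**
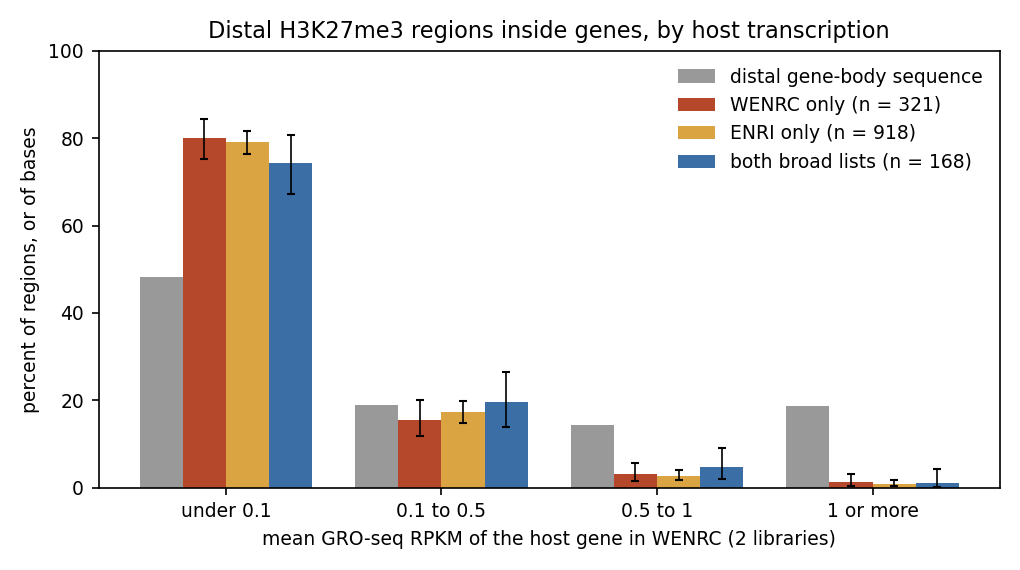
Bars show the percent of distal regions inside genes by the mean RPKM of the host gene in WENRC, for WENRC-only (n = 321), ENRI-only (n = 918) and both-list (n = 168) regions, with exact 95% intervals, beside the percent of distal gene-body bases in grey. Genes under 0.1 RPKM hold 80.1%, 79.1% and 74.4% of the regions and 48.1% of the bases.

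Broad H3K27me3 regions within 2 kb of the TSS were frequent at the hosts. In WENRC 122 of 275 hosts (44.4%, interval 38.4 to 50.5) had such a marked promoter and in ENRI 72 (26.2%), against 11.7% and 9.58% of the 15979 genes with distal body. Both media marked 61 hosts, WENRC alone 61, ENRI alone 11 and neither 142. Among the genes with distal body the counts for WENRC alone and ENRI alone were 824 and 480. Hosts of the mirror set were marked in 37.9% in WENRC and 30.7% in ENRI, with 103 in WENRC alone and 55 in ENRI alone. These promoter calls come from the same libraries as the regions and are no independent evidence. Of the 39 hosts with several regions, 24 (61.5%) had a promoter marked in WENRC. The 2 distal sets shared hosts, as 114 genes had a region of both. This is 41.5% of the 275 hosts and 17.1% of the 668 hosts of the mirror set, beside 15979 genes with distal body. The 114 had a median length of 172 kb, against 69.4 kb for the other 161 hosts. Whether genes of their length would share as many was not tested.

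Sequences of 3 host promoters are shown because they span the kinds of host. Grik4, a kainate-type glutamate receptor subunit, and Bmp6, a bone morphogenetic protein, each held several regions and had a promoter marked in WENRC only, while Tmprss9, a transmembrane serine protease, had an unmarked promoter and reads above the filter on low values, which cannot be told apart from those of Timm13 on the other strand. The windows are RefSeq's in build GRCm38.p6, 250 bases before to 50 after the start, matched by symbol and written along the gene's strand, in lower case with each CG in capitals. They lie at chr9:42944322-42944621 on the minus strand for Grik4, chr13:38345466-38345765 on the plus strand for Bmp6 and chr10:80879566-80879865 on the plus strand for Tmprss9. Their starts may not be those of the mm9 transcripts.
Grik4: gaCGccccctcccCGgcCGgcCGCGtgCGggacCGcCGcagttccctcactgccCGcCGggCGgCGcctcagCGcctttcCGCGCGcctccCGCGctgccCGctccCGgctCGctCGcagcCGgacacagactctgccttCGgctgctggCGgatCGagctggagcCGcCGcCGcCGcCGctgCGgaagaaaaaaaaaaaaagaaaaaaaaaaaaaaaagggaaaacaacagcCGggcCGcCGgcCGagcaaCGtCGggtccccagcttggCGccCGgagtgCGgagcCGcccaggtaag
Bmp6: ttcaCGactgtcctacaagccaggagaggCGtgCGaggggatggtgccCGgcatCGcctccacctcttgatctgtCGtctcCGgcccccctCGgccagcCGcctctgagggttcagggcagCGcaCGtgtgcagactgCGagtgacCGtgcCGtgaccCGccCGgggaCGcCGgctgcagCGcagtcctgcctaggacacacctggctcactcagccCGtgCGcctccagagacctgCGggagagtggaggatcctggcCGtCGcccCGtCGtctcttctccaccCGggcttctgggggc
Tmprss9: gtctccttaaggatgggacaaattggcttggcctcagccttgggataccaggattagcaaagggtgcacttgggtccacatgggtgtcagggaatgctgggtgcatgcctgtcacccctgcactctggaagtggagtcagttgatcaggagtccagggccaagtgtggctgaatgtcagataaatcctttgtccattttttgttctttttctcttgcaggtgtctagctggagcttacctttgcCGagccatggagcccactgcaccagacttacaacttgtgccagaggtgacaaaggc
The dinucleotide CG, which reads the same on both strands, occurred 42 times in the Grik4 window, 27 times in that of Bmp6 and 1 time in that of Tmprss9. Of all 32851 promoter windows of this length 94.6% held at least 1, with a median of 7 and quartiles of 3 and 20. Only 210 of the 275 hosts (76.4%) matched a window, below the 80% needed, so no comparison of CG content over the hosts was made.

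Grik4 was transcribed at a low level. Its regions on chromosome 9 held 42 and 65 tags (starts 42446480 and 42625153), 305 and 127 kb from its start, and its RPKM was 0.0389 and 0.0684 in WENRC and 0.0182 and 0.0647 in ENRI. Bmp6 had regions of 35 and 69 tags, 93.9 and 134 kb from its start, and 0.0694 and 0.0801 RPKM in WENRC against 0.0439 and 0.0522 in ENRI. The Tmprss9 region held 174 tags, 9.49 kb from its start, with the next broad ENRI region 0.673 kb away.

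Ion channels and receptors were the largest of the fixed groups among hosts, with 15 genes and 18 regions. They gave 5.61% of the regions inside genes against 3.81% of the distal gene-body sequence. Besides Grik4 they included the channel genes Trpc7, whose region held 104 tags, Cacna1d with 64 and 53, and Trpm1 with 59. Neural adhesion and guidance genes gave 7 hosts and 12 regions, 3.74% against 5.52% of the sequence, among them Dscam with 37 and 43 tags, Slit1 with 38 and 38, Ntn1 with 39 and 44, and Cntn2 with 68. Extracellular matrix genes gave 8 hosts and 9 regions, 2.80% against 1.61%. The collagen gene Col23a1 had 101 tags, only 0.047 kb from an ENRI region. The group of phosphodiesterases, adenylate cyclases and G protein regulators gave 5 hosts with 5 regions, 1.56% against 1.59%. These hosts were Rgs22, Adcy7, Dgki, Pde4dip and Adcyap1r1. The groups here and the transcription factor families below were formed mostly by how gene symbols start, so a member need not have the named function. These shares rest on few regions and were not tested.

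Developmental transcription factor families gave 4 hosts, Ebf1, Ebf2, Runx2 and Pax5, with 6 regions, 1.87% against 0.933% of the sequence. Ebf1 and Pax5 are known for B cell identity and Runx2 for bone. All 4 promoters were marked in WENRC, and those of Ebf1, Runx2 and Pax5 in ENRI as well. Ebf2 held regions of 55 and 42 tags and Pax5 of 39 and 35, the last close to the minimum of the calling. The other three genes stayed at or under 0.0216 RPKM in all libraries, while Runx2 reached 0.120 in ENRI batch 1 against 0.0219 in ENRI batch 2.

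None of the 11 PRC2 genes and of the 2 H3K27 demethylase genes hosted a region. They held only 0.0526% and 0.0133% of the distal gene-body sequence, so a count of 0 says nothing particular about them. All 11 PRC2 genes passed the filter on low values, at least 0.5 RPKM in at least 2 libraries. With limma on log2(RPKM + 0.5) over 11602 genes, 0 of the 11 passed a Benjamini-Hochberg adjusted p of 0.05, where 0.0603% of all genes passed as higher and 0.0862% as lower in ENRI. At an unadjusted p of 0.05, 0 were higher and 8 lower, against 12% and 26.9% of all genes. With the batch as a block limma called none of all 11602 genes, and at an unadjusted p of 0.05 the PRC2 genes gave 0 higher and 5 lower, against 10.4% and 22.7% of all genes. DESeq2 called 0 higher and 1 lower, against 14.7% and 8.88%, and edgeR's quasi-likelihood test 0, against 5.6% and 2.84%. Their median log2 difference was -0.52, where the median of all genes was -0.21. Rbbp7, a histone-binding subunit, had 3.94 and 4.02 RPKM in WENRC and 2.32 and 2.22 in ENRI (batches 1 and 2). Jarid2, an accessory subunit, had 2.86 and 4.43 against 1.78 and 1.98. Phf1, another accessory subunit, went the other way, with 1.47 and 1.48 against 1.69 and 3.06. The demethylase gene Kdm6a had 0.896 and 1.43 against 1.03 and 1.43, and Kdm6b 5.48 and 6.29 against 5.76 and 8.96, both overlapping between the media.

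Only 16 of the 275 hosts (5.82%) passed the filter on low values, against 48.3% of all genes, and none of the 39 hosts with several regions did. None of the 16 passed limma's adjusted p of 0.05. Unadjusted, 3 were higher and 6 lower at a p of 0.05, against 12% and 26.9% of all genes. In 5 hosts both ENRI libraries were above both WENRC libraries, and in 9 both were below, where 23% and 49.7% of all 11602 genes were so. Their median log2 difference was -0.12 against -0.21 over all genes, and 6 were higher and 10 lower, against 34.3% and 65.7% of all genes. DESeq2 called 3 of the 16 higher and 2 lower, against 14.7% and 8.88% of all genes, and edgeR's quasi-likelihood test 0, against 5.6% and 2.84%. Under edgeR with the batch as a block 1 was called higher and 0 lower, against 5.26% and 2.67% of all genes. The sign of the median turned under 4 other scalings or count models and under 2 other choices of genes, and without ENRI batch 1 limma called 2 higher and 8 lower. GRO-seq here is of whole organoids, so fewer cells of a type and less RNA per cell cannot be told apart, and p-values measure the spread between 2 libraries per medium.

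Levels of cell type markers stand beside these values. The summed RPKM of 6 crypt base stem cell markers was 22.9 to 33.6 in WENRC and 3.38 to 6.58 in ENRI, and that of 6 enterocyte markers 12.4 to 36.1 and 533 to 719. The 8 epithelial markers, of which all passed the filter, summed to 92.9 to 99.4 and 102 to 117. Of the other cell types, 1 of 6 mesenchyme, 1 of 5 immune, 0 of 3 endothelial and 1 of 5 neuron and glia markers passed it. The immune sum, 13.1 to 16.6 in WENRC and 5.27 to 5.55 in ENRI, was nearly all Cd68, with 13.1 and 16.5 against 5.25 and 5.47, while Ptprc and Cd3e were at 0 in at least 1 library. The mesenchyme sum was 0.993 to 1.49 and 0.822 to 0.923, and the endothelial sum at most 0.0647. The part of these markers in the host values was not tested.

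Among the tested hosts with lower values in ENRI, Tmprss9 had 1.05 and 1.13 RPKM in WENRC and 0.508 and 0.505 in ENRI (batches 1 and 2). Its log2 difference was -0.66 ± 0.11 (SE) with a limma adjusted p of 0.0560. It overlaps Timm13, and the strand setting of the counting is not stated. Nfia, a nuclear factor I transcription factor whose region held 135 tags, had 1.03 and 0.943 RPKM in WENRC and 0.557 and 0.444 in ENRI, a log2 difference of -0.58 ± 0.13 with a limma adjusted p of 0.0637. The antisense gene E130114P18Rik lies over part of it. Tex43 had 0.752 and 0.740 against 0.331 and 0.227 RPKM, and Tex22 0.720 and 0.668 against 0.393 and 0.233. In these 4 genes both ENRI libraries lay below both WENRC libraries. The same held for Avil, an actin-binding protein, with 1.05 and 1.10 RPKM in WENRC and 0.706 and 0.425 in ENRI, and for the collagen gene Col20a1, with 0.929 and 0.841 against 0.612 and 0.429.

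Airn, the noncoding RNA known for imprinting over Igf2r, had 2.60 and 2.79 RPKM in WENRC and 2.01 and 0.724 in ENRI, with a log2 difference of -0.86 ± 0.37 and a limma adjusted p of 0.165. The ENRI libraries lay far apart, and both were below both WENRC libraries. Airn overlaps Igf2r and Mas1 on the other strand. Pde4dip, the only tested host with a promoter marked in WENRC alone, had 0.577 and 0.533 against 0.482 and 0.433 RPKM. Dab2ip, a Ras GTPase-activating protein, had 0.794 and 0.794 against 0.762 and 0.641.

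Among the hosts with higher values in ENRI, Adamtsl5, a secreted relative of the ADAMTS proteases, was the most transcribed host of all. It had 3.71 and 3.19 RPKM in WENRC and 4.79 and 7.13 in ENRI, a log2 difference of 0.69 ± 0.25 and a limma adjusted p of 0.127, and its region held 107 tags at a fold of 5.83, 6.05 kb from its start. Ralgps1, an exchange factor for Ral GTPases that overlaps Angptl2, had 0.405 and 0.344 against 0.659 and 1.30. The gene 9530053A07Rik had 0.442 and 0.254 against 1.14 and 0.772, the highest log2 difference of the 16 at 0.78 ± 0.20, with a limma adjusted p of 0.0763. Both ENRI libraries of these 3 genes were above both WENRC libraries. Phc2, a PRC1 subunit gene whose region held 53 tags, had 0.469 and 0.475 RPKM in WENRC and 0.630 and 0.572 in ENRI, a log2 difference of 0.18 ± 0.12 with a limma adjusted p of 0.325. The polycystin relatives Pkd1l3, with 0.616 and 0.583 against 0.669 and 0.684, and Pkd2l2, with 0.936 and 0.729 against 1.02 and 0.835, were nearly level.

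Ano1, a calcium-activated chloride channel, gave opposite values in the 2 batches. It had 0.613 RPKM in WENRC and 1.89 in ENRI of batch 1, and 0.868 and 0.0561 in batch 2. Its log2 difference was 1.10 within batch 1 and -1.30 within batch 2, so the combined -0.10 ± 0.73 describes neither batch.

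**Figure D5:**
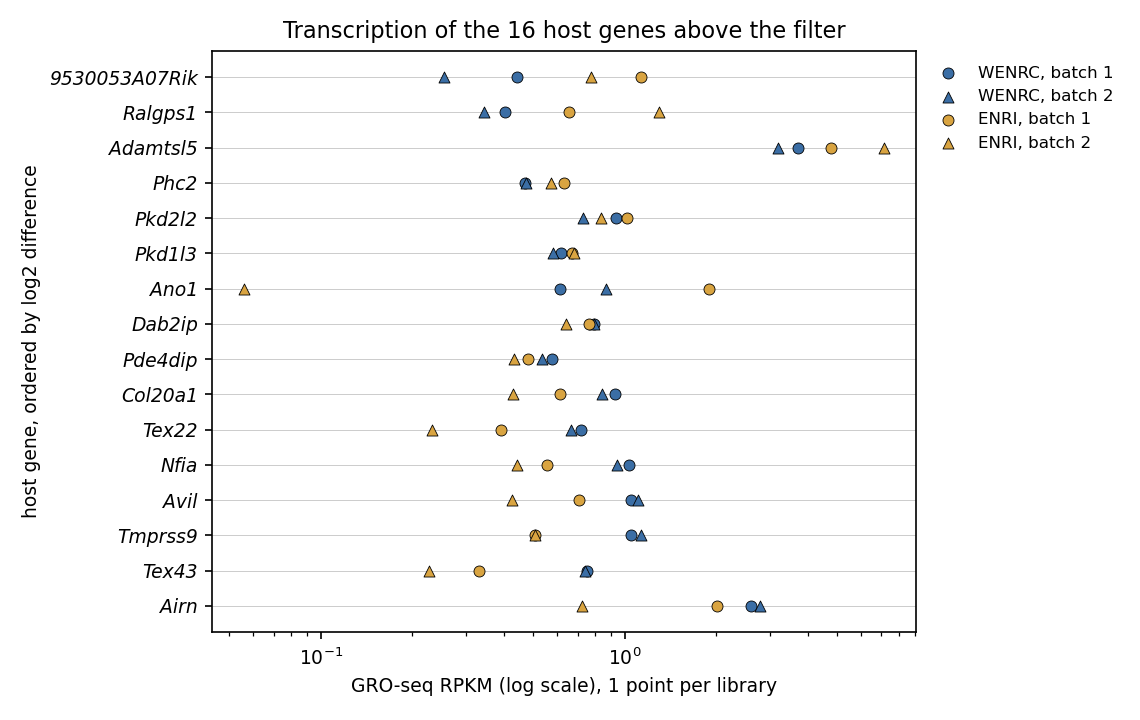
GRO-seq RPKM (log scale) of the 16 host genes above the filter, 1 point per library, blue for WENRC, yellow for ENRI, circles for batch 1 and triangles for batch 2, ordered by log2 difference. Most genes have their ENRI points on one side of the WENRC points, and the 2 ENRI points of Ano1, 1.89 and 0.0561, lie on opposite sides.

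Some hosts below the filter had higher levels in ENRI, and they are named after their values were seen. Alpk3, a kinase known from heart muscle, had 0.0218 and 0.0383 RPKM in WENRC and 0.388 and 0.937 in ENRI (batches 1 and 2). Kalrn, an exchange factor for small GTPases, had 0.140 and 0.160 against 0.407 and 0.761. Sardh, the mitochondrial sarcosine dehydrogenase, had 0.0204 and 0.0477 against 0.195 and 0.492, Smyd1, a muscle methyltransferase, 0.0272 and 0.0269 against 0.121 and 0.280, and Lhfpl2 0.113 and 0.126 against 0.352 and 0.424. In the other direction, Igdcc4 had 0.427 and 0.685 in WENRC and 0.0518 and 0.0747 in ENRI, and Plxnc1, a semaphorin receptor with 2 regions, 0.112 and 0.114 against 0.0422 and 0.0186. In each of these 7 genes the libraries of the media did not overlap, but they were picked on their values. Among the 11602 genes above the filter, 23% had both ENRI libraries above both WENRC libraries and 49.7% had both below. The authors' deposited table, with edgeR and a batch term and no such filter, lists 18 of the 275 hosts as higher in ENRI and 5 as lower at its FDR of 0.05, against 5.65% and 3.06% of 24016 genes. Its log2 fold changes were 4.61 for Alpk3, 3.55 for Sardh, 2.95 for Smyd1, 2.14 for Kalrn, -2.87 for Igdcc4 and -1.74 for Plxnc1 in the authors' deposited table.

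The 691 regions between genes had 621 nearest genes by TSS, of which 246 (39.6%) passed the filter. Limma called 0 of these 246 higher and 1 lower, against 0.0603% and 0.0862% of all genes tested. Unadjusted, 25 were higher and 75 lower at a p of 0.05, against 12% and 26.9%. DESeq2 called 36 higher and 29 lower, against 14.7% and 8.88%, and edgeR's quasi-likelihood test 16 and 12, against 5.6% and 2.84%. Nothing particular to the nearest genes is read from these counts. Their median log2 difference was -0.25 against -0.21 over all genes, with 83 higher and 163 lower. The gene called was 4930474M22Rik, a noncoding gene, which fell from 3.58 and 3.88 RPKM in WENRC to 0.234 and 0.367 in ENRI, a log2 difference of -2.41 ± 0.14 with a limma adjusted p of 0.0374. It lies within Smoc2, a crypt base stem cell marker on the other strand, and their reads cannot be told apart. The call of 4930474M22Rik was lost with a filter of 0.1 RPKM or none, a pseudocount of 0.1 and median centring (limma adjusted p of 0.0551 to 0.0703), with the batch as a block (0.0746), without WENRC batch 1 (0.318) and without WENRC batch 2 (0.415), with log2 differences of -2.46 and -2.36 without those libraries. Of the 621 nearest genes, 132 (21.3%) had a promoter marked in WENRC and 106 (17.1%) in ENRI.

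Just past the threshold, Cyp2d34, a cytochrome P450 gene, had 0.298 and 0.109 RPKM in WENRC and 4.36 and 6.19 in ENRI, and Hunk, a protein kinase gene, 1.74 and 2.10 against 0.214 and 0.154. Both had a limma adjusted p of 0.0518. Scin, an actin-severing protein, had 0.141 and 0.0610 against 3.86 and 8.32, with a limma adjusted p of 0.0560 and a promoter marked in WENRC only. Cdk1, the mitotic kinase, had 3.25 and 3.10 against 1.14 and 0.778, with the same adjusted p. These 4 were named after their values were seen.

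Of the nearest genes, 11 had 3 regions. Tcf7l2, a transcription factor of Wnt signalling, had regions of 57, 42 and 41 tags at 69.5 to 175 kb, and 3.12 and 2.36 RPKM in WENRC against 3.46 and 4.32 in ENRI. Maf, a bZIP transcription factor, had 41, 39 and 39 tags at 217 to 353 kb, and 0.393 and 0.802 against 1.73 and 2.89 RPKM, a log2 difference of 1.35 ± 0.30 with a limma adjusted p of 0.0624. Npy, the neuropeptide Y gene, had 44, 110 and 43 tags, the last at a fold of 9.37, and was at most 0.0160 RPKM. Mtx2, a mitochondrial metaxin gene, had 84, 44 and 141 tags, the highest sum of the 11. Bub3, a spindle checkpoint gene, had 2.12 and 1.96 RPKM against 1.13 and 0.743, and Gpam, which starts glycerolipid synthesis, 0.960 and 0.826 against 0.337 and 0.471. Terc, the RNA of telomerase, had 15.3 and 13.7 against 7.46 and 1.92, with regions of 38, 48 and 41 tags at 6.13 to 24.1 kb. None of these genes passed limma's adjusted p of 0.05.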

How the data were processed

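H3K27me3 ChIP-seq (1 library per medium) and GRO-seq (2 per medium) of mouse duodenal organoids were used. Input DNA entered only through the peak calls, and the histone H3 samples were not analysed here. Groups came from the sample titles.

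Per the file headers, the authors ran HOMER on single libraries, with the matching input DNA as control. A region needed 4-fold enrichment against input and against its surrounding 10000 bp, both at p 0.0001. Windows were 1000 bp (broad lists, tag threshold of 34 in WENRC and 32 in ENRI) or 500 bp (narrow lists). The deposited lists give the coverage signal as ChIP tags per 10M, input tags, the fold (ratio) over input with its p-value, and a score. The score can exceed the tags of its region, so it was not read as a count of them. Tag numbers were recovered from the deposited values to the nearest whole tag. Builds, Bowtie, Bowtie2 and FastQC are named in the submitters' processing notes, with HOMER 4.3.

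The GRO-seq signal was deposited by the authors as scaled reads per transcript in mm9, counted with HOMER, per the file headers. Each value divided by the value of 1 read in its library gave a whole number (tolerance 0.1) for 100% of the low values, and these reads were used as counts. The strand setting is not stated. The authors' log2 fold changes and FDR (adjusted p-values) came from edgeR with batch, per the file headers. The other 4 columns with per-library values in that table were not used. RPKM was computed from scaled reads and column totals, for the longest transcript of each of 24016 symbols.

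The 11602 genes that reached 0.5 RPKM in 2 or more libraries entered limma 3.58.1 (R 4.3.3) on log2 RPKM with a pseudocount of 0.5, Benjamini-Hochberg adjusted p of 0.05. The unit of the recovered reads also allowed edgeR 4.0.16 and DESeq2 1.42.0. The header gives the batch of each library, and the columns of a batch share a run label across media. The batch was therefore the block of the paired fits, though deviations of same-batch libraries from their group means correlated at 0.0126 over these genes. Scripts were tested on simulated data. Shares have exact (Clopper-Pearson) 95% intervals, and tag intervals are exact Poisson intervals. Both cover counting error only, and PCR reads are not independent molecules.

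The regions, gene lists and tests were chosen with earlier results of these data known. Named genes are the hosts or nearest genes of the 10 inside and 6 between regions with the most tags, and hosts of 2 or more regions. They are also the 6 tested hosts of lowest p per direction, the 8 hosts of highest RPKM, up to 4 hosts per list, regions at the limits, and PRC2 genes. The text gives a part of them. Hosts below the filter, other nearest genes, those with 3 regions among them, and genes that overlap a named gene were named after their values were seen. Alternatives were other distances, gaps, lists and folds for the regions, and other pseudocounts, filters, scalings, tests, the block and each library left out for the genes. The level of a further immune marker is not reported here.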

Additional observations from a re-analysis of the deposited data

How the results depend on the processing

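The number of regions, 1012, was 664 and 289 where no ENRI region lay within 1 kb or 5 kb, 1992 where only the broad ENRI list was used, and 160 at a fold of at least 6. At the 5 kb gap 28.4% lay inside genes. The median log2 difference over tested hosts, -0.12, was 0.69 at the 5 kb gap (the value of Adamtsl5, the middle one of 3 tested hosts left), 0.0446 with DESeq2, 0.015 with edgeR, 0.0226 with median centring, 0.15 with quantile normalization and 0.0025 with no filter. It was -0.35 with the broad ENRI list alone, -0.40 with a pseudocount of 0.1, and -0.38 to -0.0695 without each library in turn. Over nearest genes the median, -0.25, was -0.0679 with DESeq2, -0.10 with edgeR, -0.11 with median centring, -0.0584 with quantile normalization, -0.0204 with no filter, and -0.31 to -0.17 without each library.

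Over all genes limma called 7 higher and 10 lower in ENRI. DESeq2 called 1706 and 1030, edgeR 650 and 329, and quantile normalization 504 and 421. A filter of 0.1 RPKM and no filter gave 0 and 0, a pseudocount of 0.1 gave 1 and 0, and median centring 7 and 5. Without each library in turn 0 to 1809 were higher and 0 to 3983 lower, the most without ENRI batch 1. The lone library left in a medium was assumed to vary like the other pair. With the replicate block limma called 0 and 0, and edgeR 610 and 310 with a nearest-gene median of -0.099. Among the hosts and nearest genes tested, the block in limma changed no call other than that of 4930474M22Rik. Among hosts DESeq2 called 3 higher and 2 lower, edgeR with the block 1 higher, quantile normalization 1 higher, and 0 to 2 higher and 0 to 8 lower passed without each library. The cause of these shifts was not tested.

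Of single genes, Pkd2l2 was -0.0121 to 0.21 without each library, the lowest without WENRC replicate 2. Dab2ip was 0.0943 with DESeq2, 0.06 with edgeR with or without the block (0.063 and 0.065), 0.0386 with median centring and 0.13 with quantile normalization. Ano1 was 0.60 with DESeq2 and edgeR (0.603 and 0.598), 0.0483 with median centring, 0.27 with quantile normalization, 0.00885 with a pseudocount of 1, and -1.15 to 0.95 without each library, the lowest without ENRI replicate 1. Pde4dip was 0.00663 with median centring and 0.16 with quantile normalization. Without each library in turn Kdm6a was -0.17 to 0.30 and Kdm6b -0.0267 to 0.57. Rragc was 0.0839 with DESeq2 and 0.0517 with edgeR, or 0.0438 with the block. The limma adjusted p of 4930474M22Rik was 0.0746 with the replicate block. With 44 tags in a median region against 8 in input, the depth of 1 ChIP library per medium does not separate a region absent in ENRI from one that missed the calling limit.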
